A study of Mus musculus with 27 samples.

Results

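The transcript levels of 10 Polycomb genes were followed in HSPCs (haematopoietic stem and progenitor cells) isolated from C57BL/6 mice. They were the rows of the deposited expression table whose symbol was Ezh1, Ezh2, Eed, Suz12, Jarid2, Bmi1, Rnf2, Cbx2, Cbx7 or Cbx8, so 10 of 24418 entries. All 10 reached an FPKM (fragments per kilobase of transcript, scaled to the sequenced fragments) of at least 1 in each of the 27 libraries, and all 10 were among the 13350 genes tested. Bulk RNA sequencing covered 9 groups of 3 libraries: the embryonic groups E12.5 PL, E12.5 FL and E16.5 FL, a Perinatal BM group, and 5 later BM groups named for the age in weeks (1w, 3w, 4w, 6w and 8w BM). FL usually stands for fetal liver and BM for bone marrow, while PL is not spelled out by the submitters. No genotype other than the strain and no treatment is named for any group. The sources used here do not give the sex of the mice, the purification markers, the perinatal day or any pooling of animals. The p-values therefore reflect the spread among these libraries alone, which may be technical.

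Polycomb proteins keep genes silent by modifying histones, in a pair of complexes. Polycomb repressive complex PRC2 methylates lysine 27 of histone H3 through Ezh2, abundant in dividing cells, or its paralog Ezh1, with Eed and Suz12 as obligate partners and Jarid2 as an accessory subunit. PRC1 attaches ubiquitin to histone H2A through Rnf2 (also called Ring1b), and in its canonical form it holds a Pcgf subunit such as Bmi1 and a Cbx protein that binds the methylated histone. In blood-forming cells Bmi1 is known for its part in stem cell self-renewal, and Cbx7 and Cbx8 are known as alternative Cbx subunits.

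Promoter sequence is shown for Ezh2, Ezh1 and Suz12, since the levels of the paralogs moved apart and since Ezh2 and Suz12 were the members whose promoter windows held an E2F-type motif. The RefSeq promoters (build GRCm38.p6) included 9 of the 10 genes, and the windows searched ran from 250 bases before to 30 bases after the start, on both strands. The E2F-type motifs were TTTCCCGC and TTTGGCGC, held by 1.01% and 0.469% of 32851 promoters (either by 1.46%). CCAAT was held by 36.1% of promoters and TTTGAA by 17.2%, and 6 members held CCAAT and 3 held TTTGAA. The E2F-type match of Ezh2 began at base 4 counted from the start and that of Suz12 at 219 bases before it, where a TTTGAA match on the other strand, not capitalised, lies nearby. Capitals mark E2F-type and CCAAT matches on either strand. The window of Ezh1 held none of the motifs, nor did those of Bmi1 and Rnf2. A match is a run of letters, not a shown binding site. The Ezh2 stretch labelled upstream lies before the start used here but inside the gene span (chr6:47530274-47595270), where no annotated exon covers it. The Ezh1 and Suz12 stretches lie outside their gene spans.
Ezh2 upstream, chr6:47595059-47595183, minus strand: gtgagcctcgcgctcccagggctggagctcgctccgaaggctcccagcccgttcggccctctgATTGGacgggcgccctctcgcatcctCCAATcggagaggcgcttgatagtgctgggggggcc
Ezh2 start, chr6:47595020-47595049, minus strand: cgatggcgATTGGgttgctgcgTTTGGCGC
Ezh1 upstream, chr11:101226464-101226713, minus strand: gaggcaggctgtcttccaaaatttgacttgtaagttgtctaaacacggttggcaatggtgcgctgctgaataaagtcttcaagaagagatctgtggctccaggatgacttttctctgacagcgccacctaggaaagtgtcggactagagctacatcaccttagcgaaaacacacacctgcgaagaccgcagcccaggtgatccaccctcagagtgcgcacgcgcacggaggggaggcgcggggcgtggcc
Suz12 upstream, chr11:79992856-79993105, plus strand: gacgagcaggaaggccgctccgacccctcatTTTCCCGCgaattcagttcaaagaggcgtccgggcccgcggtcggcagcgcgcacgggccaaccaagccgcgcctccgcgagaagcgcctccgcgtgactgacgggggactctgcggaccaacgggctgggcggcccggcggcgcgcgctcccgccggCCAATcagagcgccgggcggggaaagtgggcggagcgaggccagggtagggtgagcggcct

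Libraries of a group correlated at r = 0.989 to 0.997 across all 24418 entries, those at 0 included, and E12.5 PL stood apart from the other groups at 0.853 to 0.898. Genes are not independent replicates. FPKM summed to at most 611034 per library outside E12.5 PL and to at least 651063 within it. The table holds no counts, and the most common ratio between low values put the depth of the libraries at 0.687 to 1.63 times that of the median library, with the highest group mean (1.53) in E12.5 FL and the lowest (0.816) in 4w BM. The labelled cell type was checked with 9 HSPC markers. They summed to 368 to 404 FPKM in E12.5 PL and 799 to 830 in E12.5 FL. Of these markers 7 were called higher in E12.5 FL and 1, Procr, lower. Procr had means of 148 FPKM in E12.5 PL and 4.14 in E12.5 FL, and held the largest part of the E12.5 PL sum. The 5 pan-leukocyte genes summed to 117 to 227 FPKM in E12.5 PL and 1032 to 1078 in E12.5 FL. In E12.5 PL all 6 trophoblast markers were present and summed to 2636 to 3048 FPKM, against 13.3 to 15.3 in E12.5 FL, where Hand1 was listed at 0 and Krt18 held most of the sum. The 5 stromal markers summed to 734 to 2217 FPKM in E12.5 PL and 0.287 to 1.02 in E12.5 FL, and the 5 endothelial markers to 608 to 795 and 212 to 235. Of the endothelial markers 4 were called lower in E12.5 FL and 1, Egfl7, higher (means of 90.9 and 192 FPKM). Egfl7 held most of the E12.5 FL sum. The 6 mast cell markers summed to 1418 to 3869 FPKM in Perinatal BM, against 11.4 to 58.5 in E16.5 FL and 87.3 to 143 in 1w BM. In bulk samples such as these, fewer cells of a type and less RNA per cell cannot be told apart.

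Among the members, Suz12 and Ezh2 had the highest levels per length, with means of 66.7 and 65.6 FPKM over the 24 libraries outside E12.5 PL, above 90.7% and 90.5% of tested genes. Eed (41.5), Rnf2 (40.0) and Bmi1 (29.8) followed, then Jarid2 (14.9), Ezh1 (9.30), Cbx2 (8.11), Cbx7 (6.47) and Cbx8 (4.13), the last above 30.2% of tested genes. The core PRC2 subunits other than Ezh1 therefore had several times the FPKM of the Cbx members. Between the highest and the lowest group mean outside E12.5 PL, Eed differed by a ratio of 1.26, Suz12 by 1.27, Bmi1 by 1.30 and Jarid2 by 1.55. Ezh2 differed by 1.57, Cbx2 by 1.62, Rnf2 by 1.78, Cbx8 by 1.80 and Ezh1 by 2.12. Cbx7 had the widest range, with a ratio of 3.51.

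**Figure D1:**
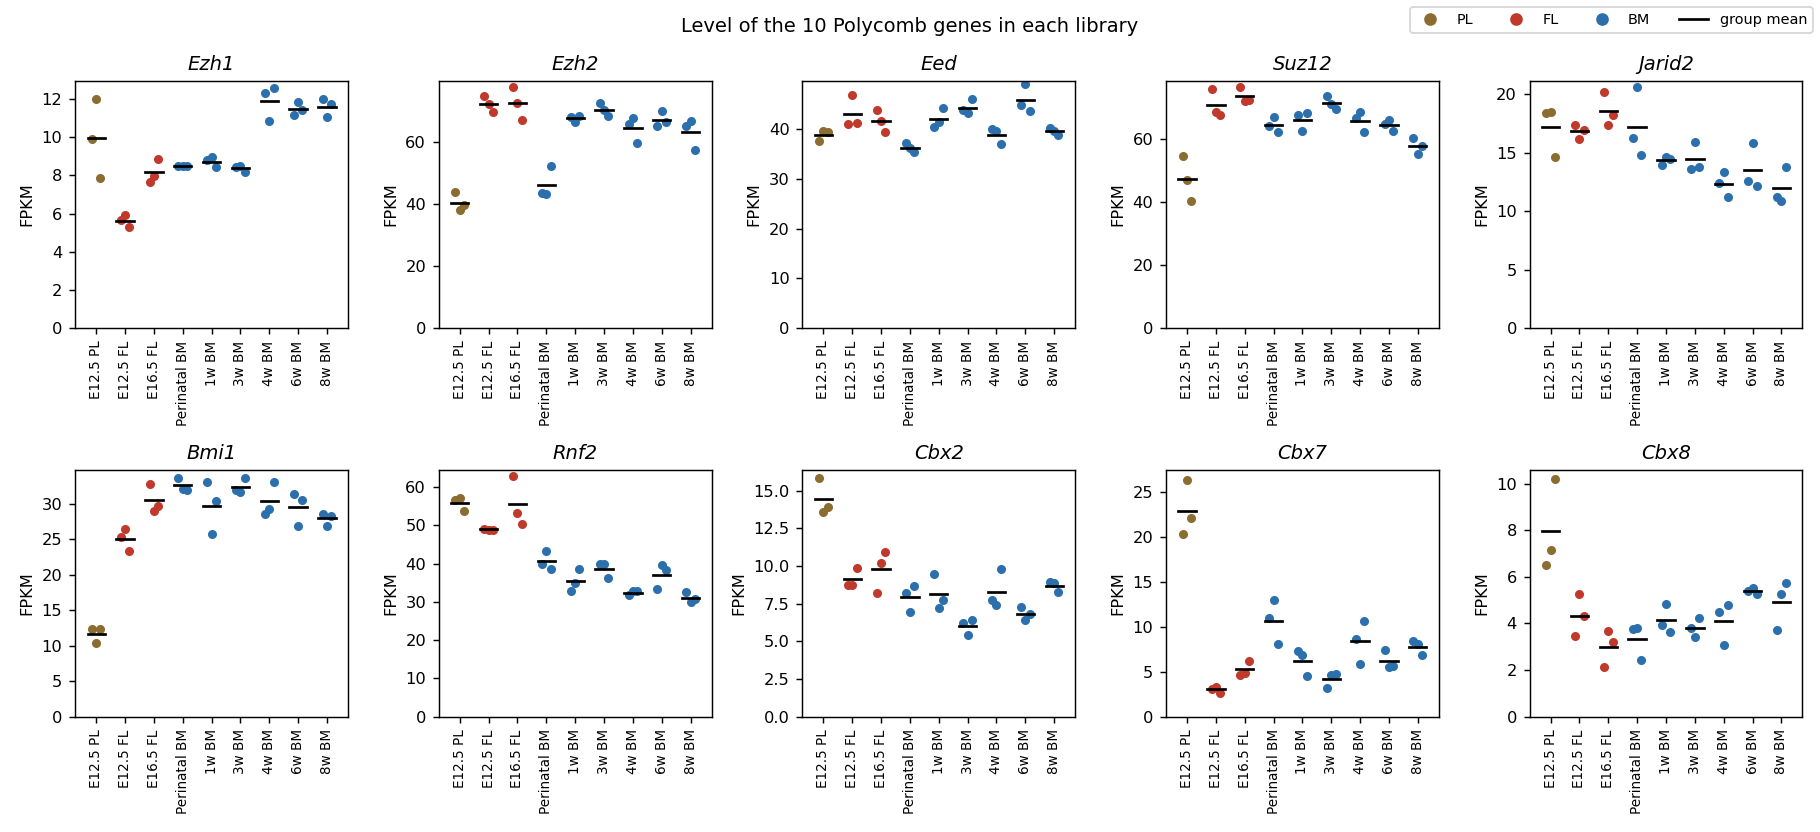
FPKM of each of the 10 genes (vertical axis, from 0) in the 9 groups (horizontal axis), with 1 point per library, coloured by source, and a black bar at the mean of 3 libraries. Ezh2 is low in E12.5 PL and Perinatal BM, Rnf2 is lower in every BM group than in FL, and Cbx7 is highest in E12.5 PL.

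In all, 9 comparisons were made, 8 between successive groups and 1 between 8w BM and E16.5 FL, and neighbouring comparisons share the libraries of the group between them. Changes are given as the log2 fold change of FPKM + 1, first-named group minus the second, from a limma fit to all 27 libraries, and a gene is called at a Benjamini-Hochberg adjusted p under 0.05 over all 13350 genes. In E12.5 FL against E12.5 PL, 9 of the 10 members were called (4 higher, 5 lower), where 74.2% of all tested genes were called. The part of the trophoblast, stromal and endothelial cells marked above in these differences was not tested. In E16.5 FL against E12.5 FL, 3 were called, all higher, with a background of 34.6%, and in Perinatal BM against E16.5 FL 4 were called (1 higher, 3 lower) with 28.4%. Both shares lie near their background.

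Through postnatal marrow the numbers were 3 in 1w BM against Perinatal BM (2 higher, 1 lower), where 17.6% of tested genes were called, and 1 lower in 3w BM against 1w BM, where 10.4% were. In 4w BM against 3w BM 4 members were called (3 higher, 1 lower), with a background of 9.28%. One member was called higher in 6w BM against 4w BM (background 3.94%) and 1 lower in 8w BM against 6w BM (8.18%). Between E16.5 FL and 8w BM 7 members were called (3 higher, 4 lower), against 40.2% of tested genes. Outside the E12.5 PL comparison the changes were small on the scale of FPKM + 1. On that scale the 24 calls had folds from 1.14 to 1.85 with a median of 1.38, and 7 of them exceeded 1.5-fold. Adding 1 shrinks the folds of low genes. The largest, of Cbx7 in Perinatal BM against E16.5 FL, had mean levels of 10.7 and 5.25 FPKM. The median change over the 10 members ran from -0.15 (Perinatal BM against E16.5 FL) to 0.11 (E16.5 FL against E12.5 FL), and the median over all tested genes from -0.06 to 0.01.

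Markers of other blood cells moved in the same comparisons, as counted by limma calls. In E16.5 FL against E12.5 FL all 5 B lineage, 5 of 7 neutrophil, 4 of 5 macrophage and all 4 erythroid markers tested were higher, and 9 of 12 proliferation genes were lower. The B lineage markers summed to 21.9 to 26.1 FPKM in E12.5 FL and 60.8 to 179 in E16.5 FL, the neutrophil markers to 754 to 891 (with Ngp and Camp listed at 0) and 882 to 1830, the macrophage markers to 20.3 to 24.01 and 38.9 to 45.6, and the erythroid markers to 5.94 to 8.02 and 17.7 to 25.4. In Perinatal BM the B lineage markers (24.8 to 61.7 FPKM) overlapped those of E16.5 FL by a small margin. All 5 were called lower, as were 3 of 4 erythroid markers. Of the 5 macrophage markers 3 were called lower and 1, Mpeg1, higher. The macrophage sums (36.6 to 44.7 FPKM) overlapped those of E16.5 FL. In 8w BM against E16.5 FL all 5 B lineage markers were lower (19.5 to 22.1 FPKM), 4 of 5 macrophage markers were higher (93.8 to 142), and 3 of 7 neutrophil markers were higher and 4 lower (2234 to 2713).

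Within marrow, in 1w BM against Perinatal BM, 5 of 6 mast cell markers were lower and 8 of 12 proliferation genes higher. In 3w BM 4 of 7 neutrophil and 3 of 6 mast cell markers were lower than in 1w BM, and 3 of 5 macrophage and 2 of 5 B lineage markers were higher. In 4w BM against 3w BM 4 of 7 neutrophil markers (2914 to 3176 FPKM in 3w BM, 835 to 2504 in 4w BM), 4 of 5 B lineage markers (32.9 to 43.3 and 19.8 to 23.6) and 4 of 12 proliferation genes were lower. All 5 macrophage markers were higher in 8w BM than in 6w BM, where they summed to 44.8 to 52.4 FPKM. The part of these cells in the changes of the members was not tested.

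**Figure D2:**
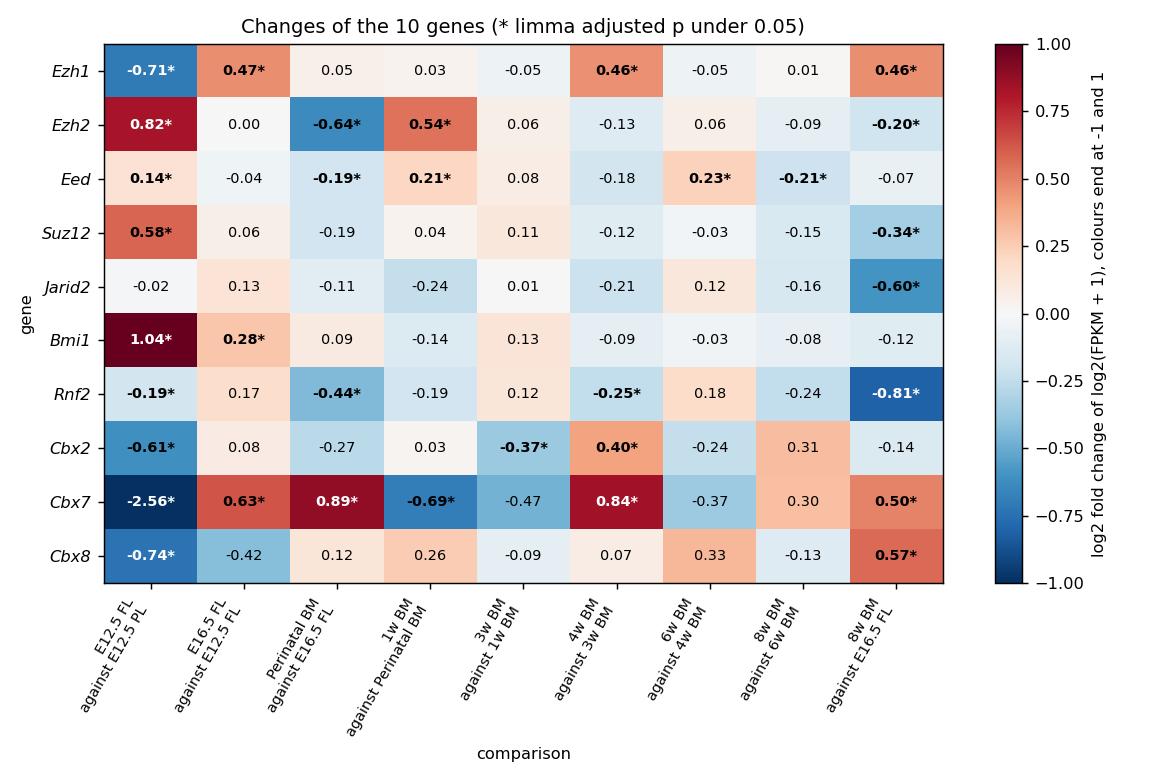
Log2 fold change of FPKM + 1 for each gene (rows) in each comparison (columns), printed in each cell and coloured from blue (lower) to red (higher), with an asterisk where the limma adjusted p was under 0.05. The largest change is the -2.56 of Cbx7 in E12.5 FL against E12.5 PL, and most cells outside that column lie within 0.5 of 0.

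Ezh2, the main catalytic subunit of PRC2 in dividing cells (gene at chr6:47530274-47595270, GRCm38), was lowest in E12.5 PL and Perinatal BM. Its levels were 43.8, 38.0 and 39.7 FPKM in E12.5 PL, 74.8, 72.3 and 69.8 in E12.5 FL and 77.8, 72.6 and 67.3 in E16.5 FL. They were 43.5, 43.2 and 52.4 in Perinatal BM, 68.3, 66.5 and 68.5 in 1w BM and 72.7, 70.3 and 68.5 in 3w BM. The 3 later BM groups held 65.9, 67.7 and 59.9 (4w), 65.2, 70.1 and 66.7 (6w) and 65.2, 66.9 and 57.6 (8w). Every library of E12.5 PL and Perinatal BM thus lay below every library of the other 7 groups, and the libraries of those 2 low groups overlapped each other.

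Between E12.5 PL and E12.5 FL Ezh2 rose by 0.82 ± 0.08 (SE, log2, 3 libraries each, limma adjusted p = 1.04e-09). It did not differ detectably between E12.5 and E16.5 FL (0.00 ± 0.08, adjusted p = 0.990 by limma), with a 95% confidence interval from -0.15 to 0.16. It fell by 0.64 ± 0.08 from E16.5 FL to Perinatal BM (adjusted p = 1.89e-06 by limma) and rose by 0.54 ± 0.08 to 1w BM (adjusted p = 3.25e-05). With 1w BM taken as the first marrow group, an alternative chosen after seeing the data, the change from E16.5 FL was -0.09 with an adjusted p of 0.416 by limma. The dip was therefore seen in the Perinatal BM libraries, in which the mast cell genes above were also highest (3094, 1418 and 3869 FPKM in replicates 1 to 3, and Ezh2 at 43.5, 43.2 and 52.4). The part of those cells in the result was not tested.

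From E16.5 FL to 8w BM Ezh2 fell by 0.20 ± 0.08 (limma adjusted p = 0.0431), a ratio of 1.15. This call was lost without E16.5 FL replicate 1 or 2 or 8w BM replicate 1 or 3 (adjusted p from 0.0529 to 0.227), and also with no filter on low values (0.0535) or with only the 6 libraries compared (0.0782).

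Ezh1, the paralog that forms an alternative PRC2 and is known for its role in cells that divide little (chr11:101191115-101226463), followed another course. Its levels were 9.94, 12.04 and 7.85 FPKM in E12.5 PL, 5.68, 5.93 and 5.29 in E12.5 FL and 7.67, 7.97 and 8.86 in E16.5 FL. In Perinatal BM they were 8.473, 8.502 and 8.505, in 1w BM 8.79, 8.95 and 8.43, and in 3w BM 8.46, 8.52 and 8.20. In 4w BM they were 12.3, 10.8 and 12.6, in 6w BM 11.2, 11.8 and 11.4, and in 8w BM 12.02, 11.05 and 11.75. The levels thus fell into 3 bands outside E12.5 PL: E12.5 FL, then E16.5 FL to 3w BM, then 4w to 8w BM, with no overlap between bands, and the groups within each of the upper bands overlapped.

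Ezh1 was lower in E12.5 FL than in E12.5 PL (-0.71 ± 0.10, limma adjusted p = 8.58e-07) and rose by 0.47 ± 0.10 to E16.5 FL (adjusted p = 0.000924). The other step at which it was called was 4w BM against 3w BM, where it rose by 0.46 ± 0.10 (adjusted p = 0.00636 by limma). Over the whole interval from E16.5 FL to 8w BM it rose by 0.46 ± 0.10 (adjusted p = 0.000656 by limma). Each of these 4 calls was kept under all alternatives run. The intervals of the steps not called were narrow: that of 3w BM against 1w BM ran from -0.25 to 0.15.

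The 2 methyltransferase genes were compared by the ratio of their FPKM, which is per length and is unaffected by a common scaling of a library. Ezh2 exceeded Ezh1 in all 27 libraries. The ratio was 4.21 ± 0.97 (SD, n = 3) in E12.5 PL, 12.8 ± 0.58 in E12.5 FL and 8.95 ± 1.28 in E16.5 FL. In BM it was 5.46 ± 0.61 (Perinatal), 7.78 ± 0.35 (1w), 8.40 ± 0.17 (3w), 5.45 ± 0.75 (4w), 5.86 ± 0.05 (6w) and 5.46 ± 0.58 (8w). The highest ratios were thus in E12.5 FL, and among the marrow groups those of 1w and 3w BM lay above the others without overlap. The E16.5 FL libraries (7.59 to 10.1) overlapped those of 1w BM (7.435 to 8.13) and 3w BM (8.25 to 8.59).

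Over the 18 BM libraries the log2 ratio was 2.65 ± 0.29 (SD), and over the 6 FL libraries 3.42 ± 0.32, a difference of -0.77 (two-sided exact permutation test over the libraries, p = 6.69e-05, 134596 arrangements). With each age as 1 value (6 BM against 2 FL ages, an alternative chosen after seeing the data) the exact permutation p was 0.0357, the smallest that 28 arrangements allow. Ages within a source differed from each other, so the libraries are not exchangeable replicates of a source and the first p is too small. All FL libraries are embryonic and all BM libraries perinatal or later, so source and age cannot be told apart. In the single comparisons the groups of 3 did not overlap in 7 of 9, each with an exact permutation p of 0.1, the smallest that 3 against 3 can give. Across 6w BM against 4w BM and 8w BM against 6w BM the ratios overlapped (exact permutation p = 0.4 for each).

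**Figure D3:**
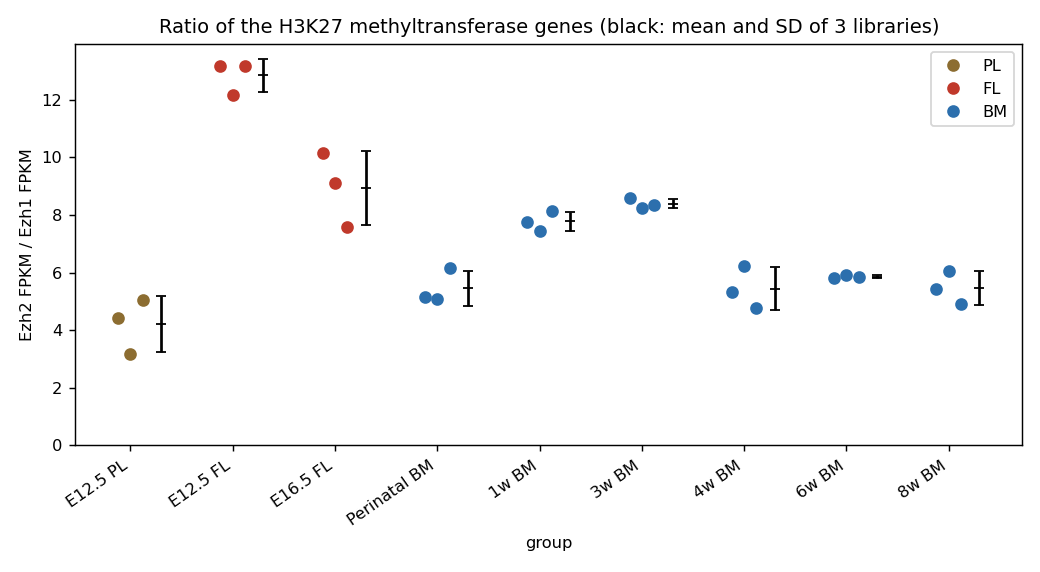
Ratio of Ezh2 FPKM to Ezh1 FPKM (vertical axis) in the 9 groups (horizontal axis), with 1 point per library and, in black, the mean and SD of 3 libraries. The ratio is highest in E12.5 FL (12.2 to 13.2) and is between 4.76 and 6.24 in Perinatal, 4w, 6w and 8w BM.

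Eed, which binds the methylated histone and stimulates the enzyme (chr7:89954654-89980976), varied least of the members outside E12.5 PL. Its group means ran from 36.3 ± 0.94 FPKM (SD, n = 3) in Perinatal BM to 45.8 ± 2.83 in 6w BM. The Perinatal BM libraries (37.3, 36.1 and 35.4) lay below every library of the other groups except 4w BM replicate 3 (37.1). Eed fell by 0.19 ± 0.06 from E16.5 FL to Perinatal BM (limma adjusted p = 0.0184) and rose by 0.21 ± 0.06 to 1w BM (adjusted p = 0.0208), so it was called at the same steps and in the same directions as Ezh2. The change from E16.5 FL was 0.01 (adjusted p = 0.934 by limma) with 1w BM in place of Perinatal BM.

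Eed was also the only member called between 4w and 6w BM (0.23 ± 0.06, limma adjusted p = 0.0333) and between 6w and 8w BM (-0.21 ± 0.06, adjusted p = 0.0372). In 6w BM the levels were 44.9, 49.0 and 43.6 FPKM, above the 40.0, 39.6 and 37.1 of 4w BM and the 40.3, 39.5 and 38.9 of 8w BM. In E12.5 FL against E12.5 PL its change was 0.14 ± 0.06 (adjusted p = 0.0386 by limma). None of these 5 small changes held in every refit without 1 library. The Perinatal BM calls were lost without E16.5 FL replicate 1 or Perinatal BM replicate 3 (adjusted p 0.0549 to 0.0923) and without Perinatal BM replicate 2 or 3 or 1w BM replicate 3 (0.0539 to 0.108). The 6w BM call was lost without 4w BM replicate 1 or 3 or 6w BM replicate 1 or 2 (0.0558 to 0.192), and the 8w BM call without 6w BM replicate 1 or 2 or any 8w BM replicate (0.0532 to 0.236). The E12.5 call was lost without any E12.5 PL replicate or E12.5 FL replicate 2 (0.0564 to 0.260). Each was also lost when only the 6 libraries compared were fitted (adjusted p from 0.0916 to 0.218).

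Suz12, the scaffold on which PRC2 assembles (chr11:79993106-80034123), was lowest in E12.5 PL, at 54.4, 46.9 and 40.1 FPKM, and held 75.9, 68.5 and 67.4 in E12.5 FL. It was called higher in E12.5 FL by 0.58 ± 0.08 (limma adjusted p = 3.96e-07). The E16.5 FL libraries held 76.5, 71.9 and 72.2 FPKM and those of 8w BM 60.2, 55.2 and 57.8, the lowest outside E12.5 PL, with no overlap with any other group. Suz12 fell by 0.34 ± 0.08 between them (adjusted p = 0.00102 by limma), and both calls were kept under all alternatives run. No single step between successive groups after E12.5 FL was called, and the group means between Perinatal and 6w BM lay from 64.3 to 71.4.

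Jarid2, an accessory subunit that helps to bring PRC2 to chromatin (chr13:44730774-44921643), had similar levels in E12.5 PL, E12.5 FL and E16.5 FL. The E16.5 FL libraries held 20.2, 17.4 and 18.2 FPKM, and the Perinatal BM libraries 16.2, 20.6 and 14.8, the widest spread of its groups. The 8w BM libraries held 11.2, 10.9 and 13.7 FPKM, all below those of E16.5 FL. Between these Jarid2 fell by 0.60 ± 0.12 (limma adjusted p = 0.000291), a call kept under all alternatives run, and it was the one member not called between E12.5 PL and E12.5 FL (-0.02 ± 0.12, 95% interval -0.26 to 0.22). Every BM group from 1w on lay below every FL library of Jarid2, and in 1w BM against E16.5 FL it was already lower (-0.35 ± 0.12, adjusted p = 0.0346 by limma).

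Rnf2, the ubiquitin ligase subunit of PRC1 (chr1:151469398-151500991), showed the clearest split between FL and BM libraries. The FL groups are embryonic and the BM groups perinatal or later, so source and age cannot be told apart in this split. Its levels were 56.6, 57.3 and 53.8 FPKM in E12.5 PL, 49.1, 48.9 and 48.8 in E12.5 FL and 62.9, 53.2 and 50.4 in E16.5 FL. In marrow they were 39.8, 43.3 and 38.6 (Perinatal), 32.9, 35.1 and 38.5 (1w) and 39.9, 39.9 and 36.3 (3w), then 31.7, 32.7 and 32.9 (4w), 33.4, 39.7 and 38.4 (6w) and 32.6, 29.9 and 30.8 (8w). All 18 BM libraries lay below all 6 FL libraries and the 3 of E12.5 PL. Rnf2 fell by 0.44 ± 0.08 from E16.5 FL to Perinatal BM (limma adjusted p = 0.000193). It was 0.81 ± 0.08 below E16.5 FL in 8w BM (log2 change -0.81, limma adjusted p = 2.15e-08), a ratio of 1.75 in FPKM + 1.

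The fall of Rnf2 did not rest on Perinatal BM, since 1w BM was lower than E16.5 FL by more (log2 change -0.63, limma adjusted p = 3.80e-06). Rnf2 and Jarid2 were the 2 members called in that comparison, in which 22.2% of tested genes were called. The 2 smaller calls were less stable. That of 4w BM against 3w BM (-0.25 ± 0.08, adjusted p = 0.0468 by limma) was lost without any 1 of the 6 libraries (adjusted p from 0.0510 to 0.168), with no filter (0.0592), after median-of-ratios scaling (0.0510) and with only the 6 libraries (0.0572). That of E12.5 FL against E12.5 PL (-0.19 ± 0.08, adjusted p = 0.0327) was lost without E12.5 PL replicate 1 or 2 or any E12.5 FL replicate (0.0609 to 0.0940). Rnf2 overlaps Trmt1l on the opposite strand, and whether counting used strand is not stated, so their reads cannot be told apart where they overlap. Trmt1l held mean levels of 13.3 FPKM in E16.5 FL, 8.45 in Perinatal BM and 21.2 in 8w BM.

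Bmi1 (chr2:18677018-18686629), the Pcgf subunit best known from blood stem cells, was low in E12.5 PL, at 12.4, 10.4 and 12.3 FPKM. It held 25.3, 26.4 and 23.4 FPKM in E12.5 FL and 32.8, 29.0 and 29.7 in E16.5 FL. After that its group means stayed between 27.9 and 32.6 FPKM, and no step within marrow was called. Bmi1 rose by 1.04 ± 0.09 from E12.5 PL to E12.5 FL (limma adjusted p = 1.55e-10) and by 0.28 ± 0.09 to E16.5 FL (adjusted p = 0.0159). The second call was lost without E12.5 FL replicate 3 or E16.5 FL replicate 1 (adjusted p 0.0801 and 0.0849). From E16.5 FL to 8w BM the change was -0.12 with a 95% interval from -0.30 to 0.06.

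Cbx7 (chr15:79915804-79971143), a Cbx subunit of canonical PRC1, was the most variable member and was called in 6 of 9 comparisons. Its levels were 20.3, 26.3 and 22.1 FPKM in E12.5 PL, 3.10, 3.35 and 2.66 in E12.5 FL and 4.68, 4.83 and 6.24 in E16.5 FL. In marrow they were 11.0, 12.9 and 8.04 (Perinatal), 7.26, 6.89 and 4.57 (1w) and 3.20, 4.64 and 4.72 (3w), then 8.64, 5.91 and 10.7 (4w), 7.38, 5.53 and 5.63 (6w) and 8.44, 8.10 and 6.88 (8w). The E12.5 PL libraries lay above all others, and outside them E12.5 FL and 3w BM had the lowest means and Perinatal BM the highest. The change from E12.5 PL to E12.5 FL was -2.56 ± 0.19 (limma adjusted p = 2.51e-11), a 5.90-fold difference in FPKM + 1. The ratio of the mean FPKM was 7.54.

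Cbx7 then rose by 0.63 ± 0.19 to E16.5 FL (limma adjusted p = 0.0143) and by 0.89 ± 0.19 to Perinatal BM (adjusted p = 0.00137). It fell by 0.69 ± 0.19 to 1w BM (adjusted p = 0.0161 by limma) and rose by 0.84 ± 0.19 from 3w to 4w BM (adjusted p = 0.00915). In 8w BM it was 0.50 ± 0.19 above E16.5 FL (adjusted p = 0.0417 by limma). With 1w BM in place of Perinatal BM the change from E16.5 FL was 0.20 (adjusted p = 0.519 by limma). Cbx7 overlaps Apobec3 on the opposite strand, and their reads cannot be told apart there without strand. Apobec3 had a mean of 14.9 FPKM in E12.5 PL and 74.8 to 109 in the other groups. The part of its reads in the Cbx7 levels was not tested.

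Of these Cbx7 calls, that of E16.5 FL against E12.5 FL was lost without E12.5 FL replicate 3 or E16.5 FL replicate 3 (limma adjusted p 0.0596 and 0.0732). That of 1w BM was lost without Perinatal BM replicate 1 or 2 or 1w BM replicate 3 (0.0518 to 0.111) and with only the 6 libraries (0.0615). That of 4w BM was lost without 3w BM replicate 1 or 4w BM replicate 3 (0.0683 and 0.0718). That of 8w BM against E16.5 FL was lost without E16.5 FL replicate 1 or 2 or 8w BM replicate 1 or 2 (0.101 to 0.134) and with no filter (0.0666).

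Cbx2 (chr11:119023019-119031275), the Cbx subunit known for compacting chromatin, and Cbx8 (chr11:119036303-119040913) are neighbours in the genome and were both highest in E12.5 PL. Cbx2 held 15.9, 13.6 and 13.9 FPKM there and 8.77, 8.73 and 9.89 in E12.5 FL (log2 change -0.61 ± 0.12, limma adjusted p = 5.64e-05). Cbx8 held 6.49, 7.17 and 10.2 FPKM in E12.5 PL and 3.46, 5.25 and 4.30 in E12.5 FL (-0.74 ± 0.19, adjusted p = 0.00116 by limma). For both genes every E12.5 PL library lay above every other library. Cbx2 was lowest in 3w BM, at 6.20, 5.44 and 6.44 FPKM, between 9.44, 7.21 and 7.72 in 1w BM and 7.74, 7.42 and 9.78 in 4w BM.

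The Cbx2 changes into and out of 3w BM were -0.37 ± 0.12 (limma adjusted p = 0.0421) and 0.40 ± 0.12 (adjusted p = 0.0324). Cbx8 was lowest in E16.5 FL, at 2.11, 3.68 and 3.19 FPKM, and held 3.71, 5.25 and 5.75 in 8w BM. That was a rise of 0.57 ± 0.19 (adjusted p = 0.0187 by limma) between groups that did not overlap by a small margin. The 3w BM call of Cbx2 was lost without 1w BM replicate 1 or 3 or any 3w BM replicate (0.0606 to 0.219), with no filter (0.0574) and with only the 6 libraries (0.0510). The 4w BM call was lost without any 3w BM replicate or 4w BM replicate 1 or 3 (0.0516 to 0.200) and with only the 6 libraries (0.0708). The Cbx8 call was lost without E16.5 FL replicate 1 or 8w BM replicate 2 or 3 (0.0645 to 0.132).

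A canonical PRC1 holds 1 Cbx protein, and the 3 Cbx members were also expressed as shares of their summed FPKM in each library. Cbx7 held 50.4% ± 4.76 (SD, n = 3) of the sum in E12.5 PL, 18.4% ± 2.36 in E12.5 FL, 29.2% ± 2.98 in E16.5 FL, 48.2% ± 6.27 in Perinatal BM and 29.8% ± 5.09 in 3w BM. Its share was at most 20.2% in any E12.5 FL library and at least 24.3% in any library of the other groups. Cbx2 held the largest mean share in every group but E12.5 PL and Perinatal BM, with 55.4% ± 4.43 in E12.5 FL, 54.3% ± 0.50 in E16.5 FL and 40.7% ± 1.56 in 8w BM, and in 4w BM its 40.3% ± 4.30 was within the spread of the 39.9% ± 3.39 of Cbx7. The mean share of Cbx8 lay between 15.04% in Perinatal BM and 29.4% in 6w BM. These are shares of transcript, not of protein or of complexes.

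**Figure D4:**
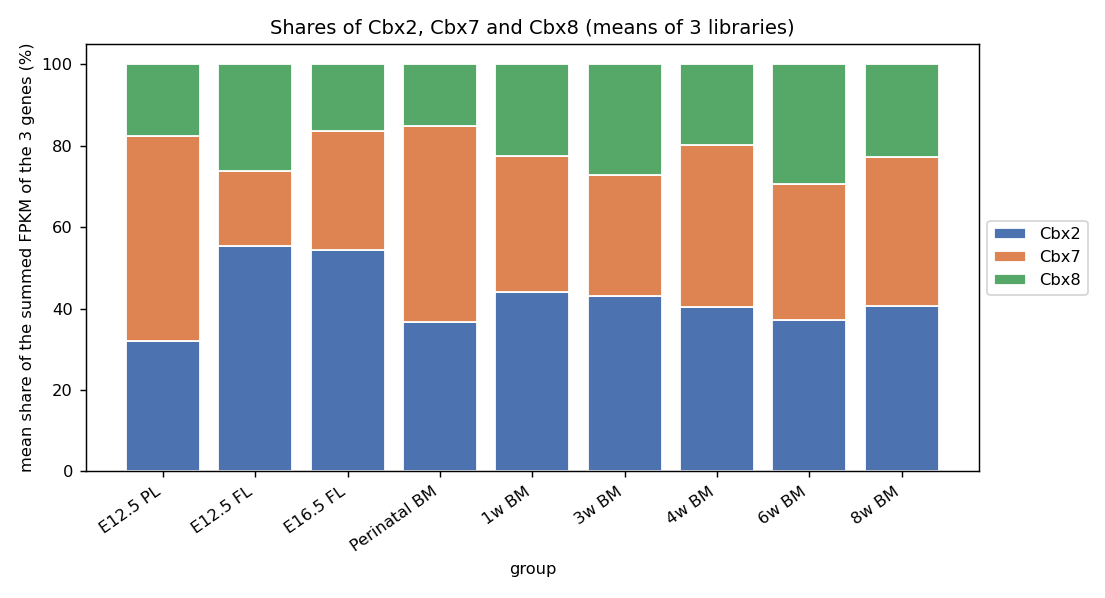
Mean shares of Cbx2, Cbx7 and Cbx8 in the summed FPKM of these 3 genes (vertical axis, percent) in the 9 groups (horizontal axis), as stacked bars of the means of 3 libraries. Cbx7 takes 50.4% in E12.5 PL and 18.4% in E12.5 FL, and Cbx2 takes the largest mean share in every group but E12.5 PL and Perinatal BM.

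Genes of proliferation moved with some members. The 12 genes of this kind examined, among them Mki67, Top2a and Mcm2, summed to a mean of 986 FPKM in E12.5 PL, 1558 in E12.5 FL, 1338 in E16.5 FL and 1159 in Perinatal BM. In later marrow the mean sums were 1389 (1w), 1438 (3w), 1273 (4w), 1315 (6w) and 1295 (8w), so E12.5 PL and Perinatal BM, the groups in which Ezh2 was lowest, also had the lowest sums. Over the 24 libraries outside E12.5 PL, which share groups and depth, Pearson's r with this sum was 0.80 for Ezh2, 0.62 for Eed and 0.45 for Suz12. It was -0.89 for Cbx7, -0.60 for Ezh1 and -0.49 for Bmi1, and lay between -0.01 and 0.33 for the other 4 members. The part of proliferation in the changes of these genes was not tested. Among pairs of members over the same 24 libraries, r was highest for Jarid2 with Rnf2 (0.84), Suz12 with Rnf2 (0.73) and Ezh2 with Eed (0.70), and most negative for Ezh2 with Cbx7 (-0.76) and Ezh1 with Rnf2 (-0.72).

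**Figure D5:**
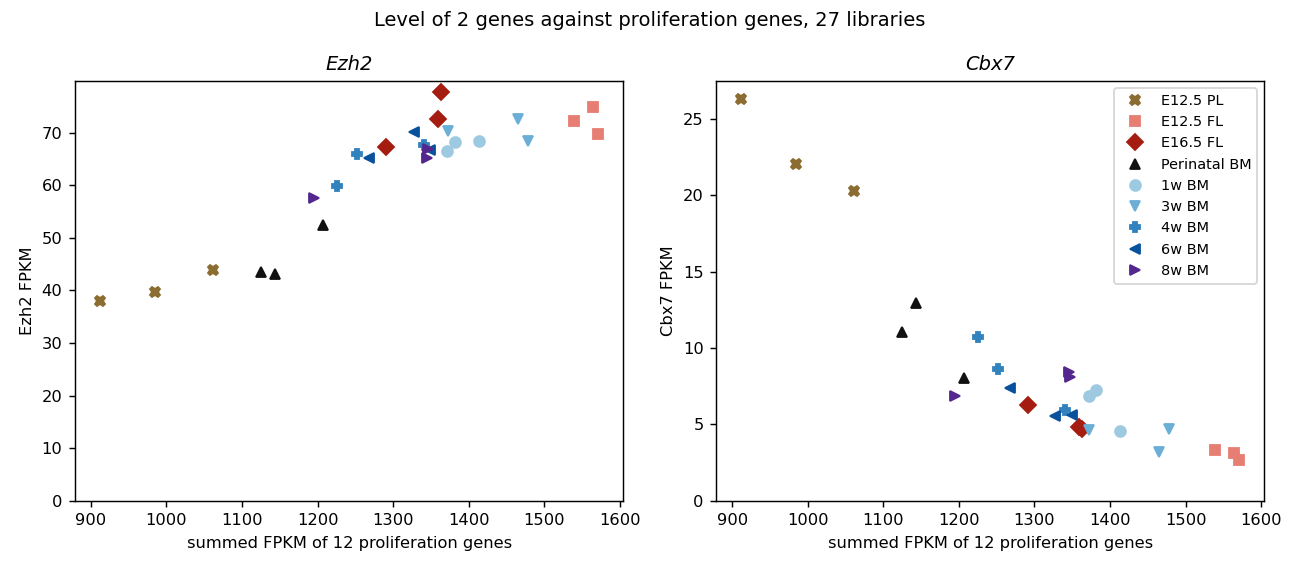
FPKM of Ezh2 (left) and Cbx7 (right) on the vertical axes against the summed FPKM of 12 proliferation genes, with 1 point per library and a symbol per group, for all 27 libraries. Ezh2 is lowest in the E12.5 PL and Perinatal BM libraries, which have low sums, Cbx7 is highest in E12.5 PL, and the E12.5 FL libraries have the highest sums and low Cbx7.

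Beyond the 10 members, 32 other Polycomb genes were examined, and all 32 were tested. They were further PRC2 and canonical PRC1 subunits and subunits of variant PRC1 (forms without a Cbx protein). Also included were Kdm6a, Kdm6b and Bap1, enzymes that remove the 2 histone marks, and Asxl1 and Asxl2, listed with these enzymes. Between E12.5 PL and E12.5 FL 25 were called (13 higher, 12 lower), near the 74.2% of all tested genes called there. Epop, a PRC2 accessory subunit that the table lists under an older name, fell from 119 ± 13.3 to 16.2 ± 1.28 FPKM (SD, n = 3), and Rbbp7, a histone-binding subunit, from 368 ± 17.4 to 201 ± 0.67. Kdm2b, which brings variant PRC1 to CpG islands, rose from 18.6 ± 1.17 to 38.4 ± 1.67 and Mtf2, a PRC2 accessory subunit, from 21.9 ± 3.83 to 60.8 ± 1.27. All 4 passed the limma test at an adjusted p of at most 1.65e-11.

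Between E12.5 and E16.5 FL 17 were called (10 higher, 7 lower), with a background of 34.6%. Among them were the demethylase genes Kdm6a, which rose from 16.1 to 24.6 FPKM, and Kdm6b, which rose from 24.6 to 67.5, and the variant PRC1 subunit gene Rybp, which rose from 26.99 to 39.6. From E16.5 FL to Perinatal BM 8 were called (3 higher, 5 lower), no larger a share than the 28.4% of all tested genes. Rybp fell to 27.6 FPKM, the H2A deubiquitinase gene Bap1 from 47.5 to 36.9 and Pcgf3 from 13.4 to 9.35. Between E16.5 FL and 8w BM 18 were called (9 higher, 9 lower), with a background of 40.2%. Rybp (23.4 FPKM in 8w BM) and Bap1 (35.1) were lower, and Cbx6 (19.4 to 26.99) was higher.

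Within marrow 5 of the 32 were called in 1w BM against Perinatal BM, all higher (among them Bcorl1, Rbbp7, L3mbtl2 and Pcgf5), 1 higher in 3w BM and 3 in 4w BM (2 higher, 1 lower). These counts are near or below the 17.6%, 10.4% and 9.28% of all tested genes called in those steps. In 6w BM 4 were called, all higher, with a background of 3.94%, and in 8w BM 7, all lower, with 8.18%. Kdm6b, which removes the PRC2 mark, was called in each of the last 4 steps. Its mean was 45.6 ± 16.4 FPKM (SD, n = 3) in 1w BM, 95.8 ± 7.27 in 3w BM, 51.2 ± 15.7 in 4w BM, 151 ± 56.0 in 6w BM and 33.1 in 8w BM (22.2 to 52.1). The 4 genes called higher in 6w BM were Kdm6b and the genes of the variant PRC1 proteins Bcor (27.9 to 48.8 FPKM), Rybp (24.5 to 34.7) and Usp7 (56.0 to 71.3), and all 4 were among the 7 called lower in 8w BM. The 7 immediate-early genes examined, which switch on within minutes of a stimulus, summed to 6314 to 10176 FPKM in 6w BM, 3488 to 4076 in 4w BM and 2426 to 5941 in 8w BM. Their part in the 6w BM changes, that of Eed included, was not tested.

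The 3 cell cycle inhibitor genes Cdkn2a, Cdkn2b and Cdkn1a were read in every group. Of these, Cdkn2a and Cdkn2b are known to be kept low by Polycomb complexes. Cdkn2a held 11.2 ± 4.38 FPKM (SD, n = 3) in E12.5 PL and was listed at 0 in all 3 libraries of E12.5 FL, Perinatal, 1w, 3w, 4w and 8w BM, and its highest library elsewhere held 0.659 (E16.5 FL). Cdkn2b held 3.28 ± 1.15 in E12.5 PL and at most 0.160 in any other library. Cdkn1a, by contrast, was present in every group, with means of 90.3 ± 19.0 FPKM in E12.5 PL, 20.5 ± 2.10 in E12.5 FL, 177 ± 60.8 in 6w BM and 54.0 ± 22.1 in 8w BM. The sums of the trophoblast, stromal and endothelial markers were also highest in E12.5 PL, and the part of those cells in the levels there was not tested.

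For each member the 3 genes with the most similar course were sought by Pearson's r of log2(FPKM + 1) over the 24 libraries outside E12.5 PL, among the 8557 tested genes averaging 5 FPKM or more (8558 for Cbx8). Those of Ezh1 were Nceh1 (r = 0.96), H2-Ob and Gabbr1, and those of Ezh2 were Pcbp1 (0.90), Kif11 and Esco2. Suz12 was closest to Kif5b (0.89), Smc3 and Lbr, Eed to Cks2 (0.82), Rhoa and Syncrip, and Jarid2 to Hbs1l (0.91), Gtf2h1 and Rev1. Rnf2 was closest to Tmem57 (0.94) and Mapk1ip1l, and Bmi1 to Slc50a1 (0.78), Arhgap15 and Gng10. The Cbx members were closest to Zfp280b (0.82), Bcl11a and Esam for Cbx2, to Firre (0.93) and Slc38a9 for Cbx7, and to Mbd4 (0.81), Tal1 and Hmgxb3 for Cbx8. Cbx8, averaging 4.13 FPKM, was below the limit and so could not be found as a neighbour of another member. None of the other members was among the 3 closest genes of a member. Apart from Cbx8, the subunits were thus not each other's nearest neighbours in these libraries.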

How the data were processed

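Total RNA of purified HSPCs was sequenced in 27 libraries, 3 in each of 9 groups taken from the labels. FPKM were computed by the authors and deposited as 1 table, used as deposited. Per the submitters' processing notes, the tools were STAR 2.7, HTSeq 0.6.1p1, Trim Galore and FastQC, with build GRCm38. How FPKM were derived, the annotation and the use of strand are not given in the sources read.

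Tests used log2(FPKM + 1). Genes with at least 1 FPKM in at least 3 libraries (13350) were fitted with limma 3.58.1 in R 4.3.3 (a mean per group, eBayes with a trend, 18 residual degrees of freedom), with Benjamini-Hochberg adjustment within each comparison at 0.05. Ratios were tested by exact permutation in Python 3.11.15, with figures from matplotlib 3.10.9. The calling was tested on simulated data.

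Named genes were all members, up to 4 other Polycomb genes per comparison with the smallest adjusted p, the 3 Cdkn genes and the 3 nearest genes of each member. A few genes picked by this rule are not reported here. The members and lists were chosen with earlier results of these data known, and the immediate-early list, the use of 1w BM in place of Perinatal BM and the test with each age as a value were added after seeing the data. The other settings tried were a filter at 5 FPKM, no filter, a pseudocount of 0.1, median-of-ratios scaling, a fit to the 6 libraries compared, a fit without E12.5 PL, a replicate block and leaving out each library.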

Additional observations from a re-analysis of the deposited data

How the results depend on the processing

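The 33 calls of members kept their direction under all alternatives run but the 1 named for Eed here, and 15 were called under all alternatives run. With no filter, no member was called in 3w BM against 1w BM (0), and with a filter at 5 FPKM 2 were called in 8w BM against 6w BM. With only the 6 libraries compared, where less is known of the spread, the counts were 1 (1w BM against Perinatal BM), 0 (3w BM against 1w BM), 2 (4w BM against 3w BM), 0 (6w BM against 4w BM) and 0 (8w BM against 6w BM). With 1w BM in place of Perinatal BM, 2 members were called against E16.5 FL, and Eed changed sign to 0.0125. Leaving out each library in turn gave 1 to 4 members in E16.5 FL against E12.5 FL, 4 to 7 in 8w BM against E16.5 FL, 1 to 3 in 1w BM against Perinatal BM, 0 to 1 in 3w BM against 1w BM, 1 to 3 in 4w BM against 3w BM, 0 to 1 in 6w BM against 4w BM and 0 to 1 in 8w BM against 6w BM. The cause of these shifts was not tested. The Ezh2 to Ezh1 difference between BM and FL stayed between -0.87 and -0.71 when any library was left out. Replicate numbers did not pair the libraries (108 pairs of equal number, residual r from -0.21 to 0.23, 14 of them over 0.1, 8 of 27 libraries closest to their own number). With a replicate block the counts were 9, 3, 5, 3, 1, 3, 1, 1 and 6 in the order of the comparisons. The block ended the calls of Rnf2 in 4w BM against 3w BM (limma adjusted p = 0.0564) and of Cbx7 in 8w BM against E16.5 FL (0.0510). Without counts, the precision of low values such as those of Cbx8 is known only from the spread of 3 libraries.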
